A study of Mus musculus with 5 samples.

Results

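The cadherin superfamily genes of the injured mouse retina described here are the genes of the count table whose symbol is Cdh followed by a number or begins with Pcdh, without the endothelial cadherin Cdh5. The rule found 92 of the 25655 gene symbols. They comprised 17 classical cadherins, 58 protocadherins of the Pcdha, Pcdhb and Pcdhg clusters, 12 other protocadherins and 5 further Cdh genes. Of the 92, 89 had enough counts to be tested. The remaining 3 were Cdh26 with at most 4 counts in a retina, Pcdh12 with at most 9, and Pcdha11_2, which was listed at 0 in every retina.

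Cadherins are transmembrane proteins whose extracellular repeats bind calcium and hold neighbouring cells together. Classical cadherins anchor to actin through the catenins, with type I members such as N-cadherin in most neural tissue and type II members in restricted sets of neurons. In the protocadherin clusters each gene has its own promoter and variable exon, neurons express different combinations, and the resulting surface identity underlies the self-avoidance of dendrites, which in the mouse retina has been studied in starburst amacrine cells.

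Retinas came from wildtype C57BL/6 mice whose optic nerve had been crushed (ONC), and whole injured retinas were taken at day 7. The mice were 8 to 10 weeks old and of either sex. They received the aldose reductase inhibitor Sorbinil at 10 mg/kg, or DMSO as vehicle, daily from the day before the crush. Total RNA of 3 retinas with DMSO (replicates 1 to 3) was set against that of 2 retinas with Sorbinil (replicates 1 and 3). The design therefore asks whether Sorbinil changed expression in the injured retina, and has no uninjured retina. Each retina came from a different mouse, and p-values measure the spread between these 5 samples.

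Counts on genes ran from 56096541 to 90288552 per retina. Levels are given as CPM, counts scaled to the TMM-normalized library size, and a log2 change sets 1 retina against the mean log2 CPM of the 3 DMSO retinas. Rod markers were abundant in every retina, as in whole retina, with summed levels of 6 rod genes between 59700 and 115946 CPM. Sorbinil replicate 1 stood apart. In that retina 17.4% of the 14992 genes tested were at least 2-fold below the DMSO mean, compared to 0.914% in Sorbinil replicate 3. Values are therefore given per retina, and medians of the main gene groups also without Sorbinil replicate 1. In whole-tissue RNA, fewer cells of a type and less RNA per cell cannot be told apart.

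No cadherin or protocadherin passed the study's threshold, a change of at least 2-fold with an unadjusted p-value no higher than 0.1. Over all genes tested, edgeR's quasi-likelihood test called 1.71%, with 1.35% lower and 0.36% higher. The count of members stayed at 0 with no filter on low counts (2.28% of all genes called) and by the DESeq2 Wald test (1.65%). Of the 89 members tested, 1 had an unadjusted p-value under 0.05, compared to 5.01% of all genes, and the same number had a p-value of at most 0.1, compared to 11.3%. The smallest adjusted p-value of the family was 0.758 by edgeR, which was also the smallest over all genes tested. The DESeq2 Wald test also gave 1 member with an unadjusted p-value under 0.05. After its adjustment 0 members had a value under 0.05, compared to 0.14% of all genes. With library-size scaling, and without any 1 of the DMSO retinas, 0 members had an unadjusted p-value under 0.05. The family leaned lower in the fit on 5 retinas, and was not tested as a set. The fitted log2 fold change was negative for 69 of 89 members (77.5%, compared to 51% of all genes tested), with a median of -0.22 against -0.01 over all genes. It was -0.24 for the classical cadherins, -0.19 for the clustered protocadherins and -0.24 for the other protocadherins. Without Sorbinil replicate 1 the family median was 0.14, and 72 of 89 members had a positive value.

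These medians hid opposite positions of the 2 Sorbinil retinas. The median over the members was -0.84 in Sorbinil replicate 1, while in Sorbinil replicate 3 it was 0.14, and the DMSO retinas lay between -0.06 and 0.09. Sorbinil replicate 1 was below every DMSO retina for 74 of 89 members, compared to 41.7% of all genes tested. Sorbinil replicate 3 was above every DMSO retina for 50 members, compared to 27.3% of all genes. For 41 members (46.1%) the first was below and the second above all 3 DMSO retinas, a pattern held by 11.8% of all genes tested. By class this pattern was found in 9 of 17 classical cadherins, 21 of 57 clustered protocadherins and 9 of 11 other protocadherins. The classes were not tested against each other.

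**Figure D1:**
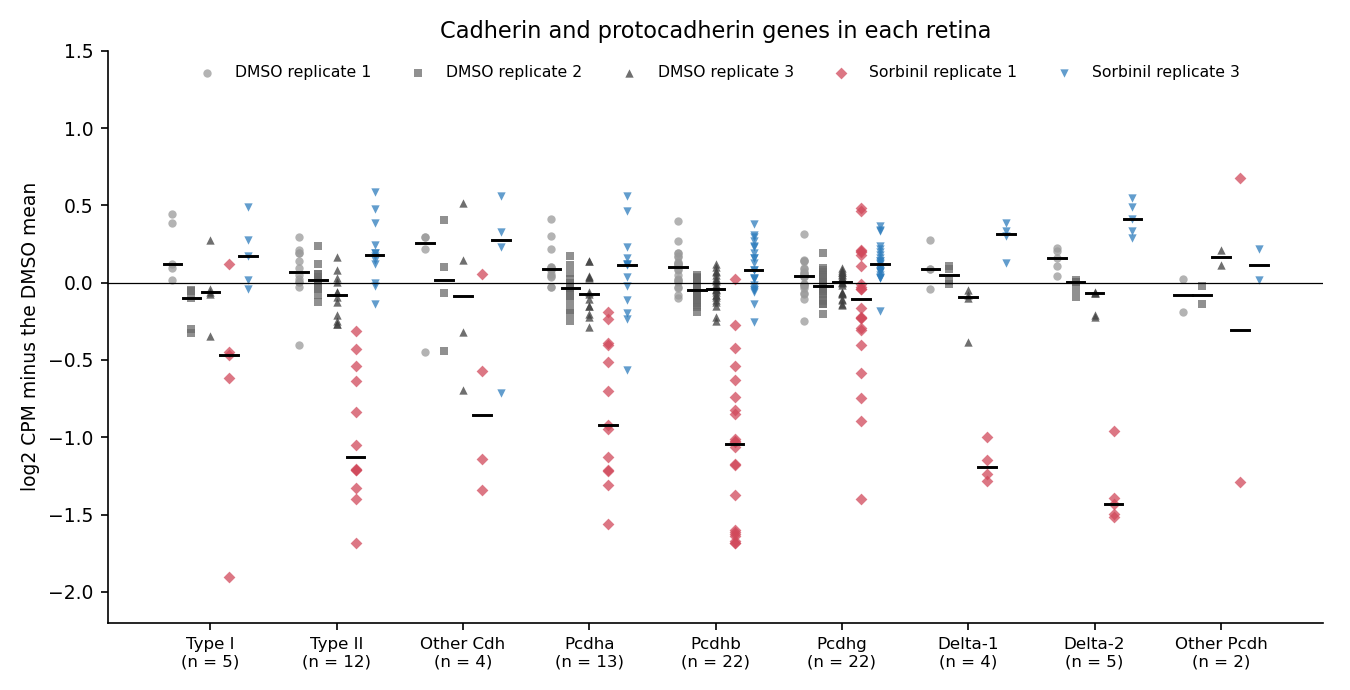
Log2 CPM minus the DMSO mean of every tested member (1 point per gene and retina), grouped by subgroup, with black bars at the median of each retina. Points of Sorbinil replicate 1 lie lowest in most subgroups, with a Delta-2 median of -1.43, while its Pcdhg median of -0.10 is close to the DMSO retinas.

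Sorbinil replicate 1 was at least 2-fold below the DMSO mean for 38 of 89 members (42.7%, against 17.4% of all genes tested), and Sorbinil replicate 3 for 0 of 89. When Sorbinil replicate 3 was left out, 39 members were called at the study's threshold, all of them in the lower direction, compared to 19.1% of all genes called in either direction. In that fit 54 members were lower and 2 higher at an adjusted p-value under 0.05 by edgeR, compared to 21.8% and 15.6% of all genes. When Sorbinil replicate 1 was left out, 0 members were called at the threshold (1.26% of all genes), and 15 were higher and 0 lower at an unadjusted p-value under 0.05, compared to 4.73% and 3.32% of all genes. Those 15 comprised 6 of the 11 other protocadherins, 6 clustered protocadherins and 3 classical cadherins, and none passed the adjustment. In these fits the remaining Sorbinil retina has no spread of its own and is assumed to vary like the DMSO retinas.

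The classical cadherins of type I were led by Cdh2, which encodes N-cadherin, the general adhesion molecule of neural tissue. At 21.9 CPM per kb of exon in DMSO retinas, Cdh2 (chromosome 18 from 16700793 to 16942381, minus strand, GRCm39) had the highest level per length outside the protocadherin clusters. It measured 206, 184 and 180 CPM in the DMSO retinas, 139 CPM in Sorbinil replicate 1 and 214 CPM in Sorbinil replicate 3. The Sorbinil retinas thus lay on either side of the DMSO retinas, and the log2 fold change was -0.11 (standard error 0.21, unadjusted p = 0.625, adjusted p = 0.863 by edgeR). Cdh4, which encodes R-cadherin, first described in retina, measured 32.5, 29.3 and 29.5 CPM with DMSO and 22.01 and 29.5 CPM with Sorbinil. The p-value of Cdh4 was the smallest of the classical cadherins, with a log2 fold change of -0.24 (standard error 0.16, unadjusted p = 0.196, adjusted p = 0.758 by edgeR).

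The other type I genes were low. Cdh1, which encodes the epithelial E-cadherin, had 1.04, 0.626 and 0.756 CPM with DMSO, 0.190 CPM in Sorbinil replicate 1 and 1.12 CPM in Sorbinil replicate 3. Its log2 change of -1.91 in Sorbinil replicate 1 was the largest of any member, and rested on 10 counts in that retina. Cdh3, which encodes P-cadherin of the pigment epithelium, measured between 2.53 and 3.78 CPM with DMSO and 2.02 and 3.15 CPM with Sorbinil. Cdh15, the muscle cadherin, stayed at or under 0.269 CPM in every retina, and was the only classical cadherin for which Sorbinil replicate 1 was not the lowest retina.

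All 12 type II cadherins were lowest in Sorbinil replicate 1, with log2 changes from -1.68 to -0.31, and 7 of them were also highest in Sorbinil replicate 3. Cdh11, which is common in mesenchymal and glial cells, was the most abundant per length at 4.82 CPM per kb. It measured 61.4, 54.2 and 52.2 CPM with DMSO, 24.0 CPM in Sorbinil replicate 1 and 66.2 CPM in Sorbinil replicate 3 (log2 fold change -0.31, standard error 0.41, unadjusted p = 0.477, adjusted p = 0.805 by edgeR). Cdh8, expressed in subsets of bipolar and ganglion cells, was at 33.0, 28.5 and 31.6 CPM with DMSO and 21.3 and 35.4 CPM with Sorbinil. Cdh19, a marker of the glial lineage of peripheral nerves, was at 0.558, 0.888 and 0.846 CPM with DMSO and 0.266 and 0.678 CPM with Sorbinil. Its p-value of 0.228 by edgeR was the smallest of the type II genes.

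How far Sorbinil replicate 1 lay below the DMSO mean differed among type II genes. Cdh22, chosen after its values were seen, had 18.03, 14.4 and 12.2 CPM with DMSO but 4.57 CPM in Sorbinil replicate 1. Cdh9, likewise chosen, was nearly level, at 8.22, 8.48 and 8.40 CPM with DMSO, 6.73 CPM in Sorbinil replicate 1 and 9.12 CPM in Sorbinil replicate 3. Cdh6, which marks direction-selective ganglion cells in the mouse, held the highest log2 change of Sorbinil replicate 3 in the family, 0.59, and stood at -1.20 in Sorbinil replicate 1.

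**Figure D2:**
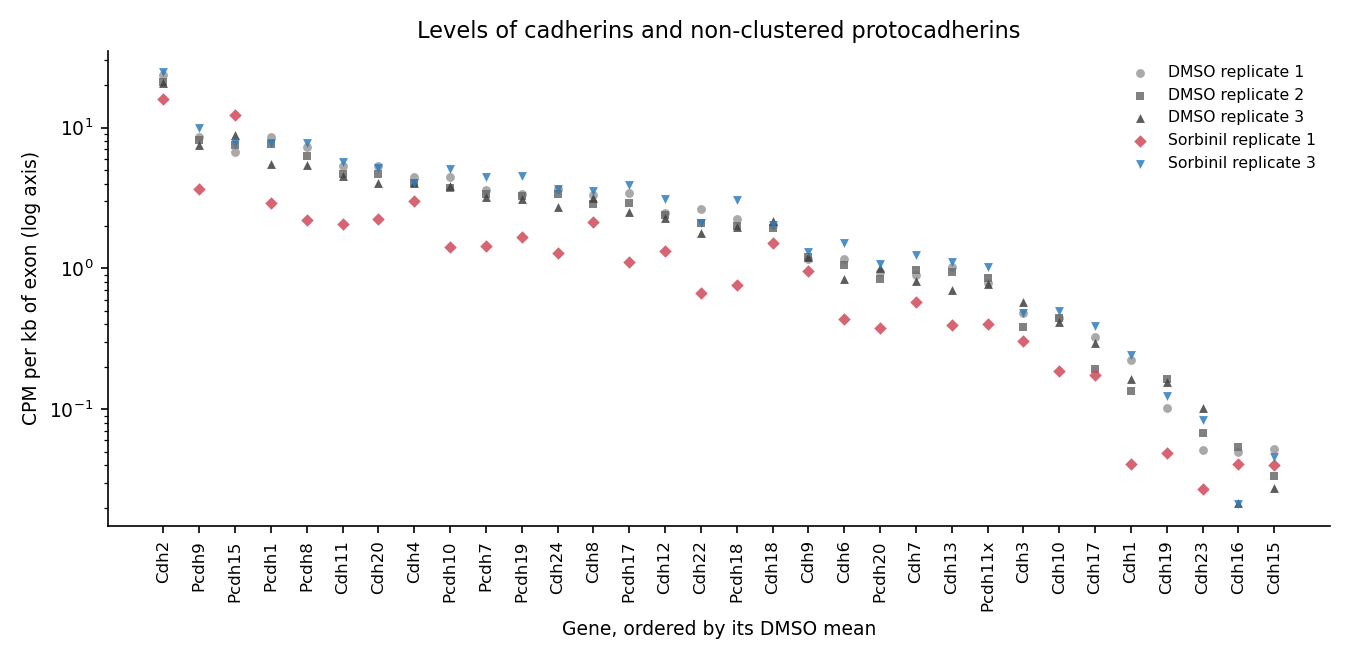
CPM per kb of exon on a log axis for the 32 tested cadherins and non-clustered protocadherins, ordered by their DMSO mean, with 1 point per retina. Cdh2 is highest at 21.9 in the DMSO mean, Pcdh15 is the abundant gene whose highest point is Sorbinil replicate 1, and in most other genes that retina is the lowest point.

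The further Cdh genes were expressed at low levels. Cdh13, a cadherin held in the membrane by a GPI anchor and found in vessels and neurons, was at 11.8, 10.9 and 8.13 CPM with DMSO and 4.59 and 12.8 CPM with Sorbinil. Cdh23, which with Pcdh15 forms the tip link of hair cells, was at 1.09, 1.43 and 2.14 CPM with DMSO and 0.571 and 1.75 CPM with Sorbinil. Cdh17, known from intestine, ranged from 0.799 to 1.78 CPM over the 5 retinas, and Cdh16, known from kidney, from 0.0884 to 0.225 CPM. For Cdh13, Cdh16, Cdh17 and Cdh23 the p-values by edgeR were between 0.452 and 0.868.

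Among the other protocadherins, all 9 of the delta family were below every DMSO retina in Sorbinil replicate 1, and 8 were above every DMSO retina in Sorbinil replicate 3. Delta protocadherins are single genes outside the clusters that carry conserved cytoplasmic motifs and are expressed in subsets of neurons. The 4 delta-1 genes had medians of -1.19 and 0.32 on the log2 scale in Sorbinil replicates 1 and 3. The 5 delta-2 genes stood at -1.43 and 0.41. The summed level of the delta-2 genes was 203, 178 and 168 CPM with DMSO, 71.1 CPM in Sorbinil replicate 1 and 239 CPM in Sorbinil replicate 3.

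Pcdh9 was the highest delta-1 gene, at 79.5, 75.5 and 69.8 CPM with DMSO, 33.8 CPM in Sorbinil replicate 1 and 92.1 CPM in Sorbinil replicate 3. Pcdh7 was at 62.5, 58.6 and 55.7 CPM with DMSO and 24.9 and 77.1 CPM with Sorbinil. In both genes the DMSO retinas spanned a narrow range and the Sorbinil retinas lay outside it in opposite directions. Pcdh1 differed in that the DMSO retinas themselves spread, at 76.8, 68.4 and 48.7 CPM, with 26.03 and 69.2 CPM in the Sorbinil retinas, so that Sorbinil replicate 3 fell within the DMSO range. X-linked Pcdh11x was at 10.8, 11.9 and 10.8 CPM with DMSO and 5.57 and 14.04 CPM with Sorbinil. The log2 fold changes of the 4 genes were between -0.44 and -0.18, with p-values between 0.348 and 0.657 by edgeR.

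Pcdh10, which organises the actin regulator WAVE at cell contacts, was the most abundant delta-2 gene, at 78.4, 65.6 and 66.8 CPM with DMSO, 24.8 CPM in Sorbinil replicate 1 and 88.4 CPM in Sorbinil replicate 3. Pcdh17 was at 44.6, 38.4 and 32.8 CPM with DMSO and 14.5 and 51.0 CPM with Sorbinil. Pcdh8, whose product regulates the internalisation of N-cadherin, was at 33.0, 28.6 and 24.7 CPM with DMSO and 9.97 and 35.0 CPM with Sorbinil. In all 3, Sorbinil replicate 1 was the lowest retina and Sorbinil replicate 3 the highest. X-linked Pcdh19, known for a female-limited epilepsy, was at 35.3, 34.7 and 32.8 CPM with DMSO and 17.6 and 48.1 CPM with Sorbinil. Pcdh18 was at 12.2, 10.9 and 10.8 CPM with DMSO and 4.17 and 16.5 CPM with Sorbinil. The p-values of the 5 genes were between 0.506 and 0.884 by edgeR.

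Pcdh15 was the exception among the other protocadherins. It encodes a protocadherin of photoreceptors and of the hair cell tip link, and lies on chromosome 10 from 72935174 to 74485569, plus strand (GRCm39). It measured 159, 178 and 211 CPM with DMSO, 291 CPM in Sorbinil replicate 1 and 183 CPM in Sorbinil replicate 3. Sorbinil replicate 1 was thus the highest retina, and Sorbinil replicate 3 lay within the DMSO range. The log2 fold change was 0.37 (standard error 0.24, unadjusted p = 0.164, adjusted p = 0.758 by edgeR). Of all counts on members, Pcdh15 took 7.72%, 9.28% and 10.9% in the DMSO retinas, 20.2% in Sorbinil replicate 1 and 8.35% in the other Sorbinil retina. Against the DMSO mean Pcdh15 stood at -0.19, -0.02 and 0.21 in the DMSO retinas, and at 0.68 and 0.01 in Sorbinil replicates 1 and 3. The medians of the rod and cone marker lists were also highest in Sorbinil replicate 1, and were lowest in Sorbinil replicate 3. Over 6 rod genes the median was -0.15, -0.01 and 0.13 for the DMSO retinas, but 0.51 for Sorbinil replicate 1 and -0.33 for Sorbinil replicate 3. Over 6 cone genes it was -0.235, -0.01 and 0.28 for the DMSO retinas, and 0.53 and -0.31 for Sorbinil replicates 1 and 3. The part of photoreceptor RNA in the level of Pcdh15 was not tested. Pcdh20 followed the delta genes instead, at 12.1, 10.8 and 12.9 CPM with DMSO and 4.83 and 13.8 CPM with Sorbinil.

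A listed promoter of Pcdh15 is shown beside those of Pcdh8 and Pcdh10, since in Sorbinil replicate 1 the first gene lay above and the others lay below the DMSO range. Each is the window of 300 bases from 250 before to 50 after a gene start listed by RefSeq for GRCm38.p6, a build other than that of the counts, written 5′ to 3′ on the strand of the gene. Capitals mark TATAAA and GGGCGG or their reverse complements. TAATCC, also searched on both strands, was in none of the 3.
Pcdh15, chr10:73821617-73821916, plus strand: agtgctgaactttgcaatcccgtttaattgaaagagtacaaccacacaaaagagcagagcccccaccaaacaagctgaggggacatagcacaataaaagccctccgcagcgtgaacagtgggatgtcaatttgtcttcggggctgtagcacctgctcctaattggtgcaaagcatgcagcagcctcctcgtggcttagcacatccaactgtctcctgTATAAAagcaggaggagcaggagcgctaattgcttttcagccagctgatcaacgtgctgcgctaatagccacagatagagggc
Pcdh8, chr14:79771263-79771562, minus strand: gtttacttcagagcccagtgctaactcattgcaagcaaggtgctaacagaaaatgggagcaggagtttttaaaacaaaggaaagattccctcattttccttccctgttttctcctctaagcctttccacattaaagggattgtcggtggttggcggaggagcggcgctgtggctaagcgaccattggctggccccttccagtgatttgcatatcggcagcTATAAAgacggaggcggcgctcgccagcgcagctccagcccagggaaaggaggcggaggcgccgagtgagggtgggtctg
Pcdh10, chr3:45378148-45378447, plus strand: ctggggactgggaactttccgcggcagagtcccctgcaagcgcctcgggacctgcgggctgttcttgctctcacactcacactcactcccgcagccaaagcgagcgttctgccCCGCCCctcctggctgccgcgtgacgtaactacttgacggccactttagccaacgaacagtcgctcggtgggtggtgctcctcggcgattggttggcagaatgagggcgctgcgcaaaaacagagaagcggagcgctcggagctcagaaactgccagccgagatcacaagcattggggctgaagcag

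In the windows of Pcdh15 and Pcdh8 a TATAAA began 33 and 30 bases before the listed start, and the windows held 8 CG dinucleotides in Pcdh15, 14 in Pcdh8 and 24 in Pcdh10. The table held 25 promoters of 22 members, none of them on chromosome 18. Of these 25, TATAAA was in 2 (8.0%, compared to 13.6% of 32851 promoters of the same length), GGGCGG in 9 (36.0%, compared to 35.7%) and TAATCC in 2 (8.0%, compared to 7.06%). A match is a description of the letters in the window, and whether these starts were used in the retina was not tested.

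The clustered protocadherins lie in 3 adjacent arrays on the plus strand of chromosome 18 (GRCm39), with Pcdha from 37063237 to 37320716, Pcdhb from 37397991 to 37657532 and Pcdhg from 37794846 to 37975014. Pcdhb genes have no shared constant exons, and 21 of 22 are annotated as a single exon block, although Pcdhb21 and Pcdhb22 overlap over 455 bp. In contrast, each of the 12 annotated Pcdha genes shares between 2860 and 2866 bp of exon with its neighbours, and each of the 22 Pcdhg genes between 2116 and 3248 bp. How reads on those exons were divided is not given in the sources used here, so the levels of single Pcdha and Pcdhg genes, and of Pcdhb21 and Pcdhb22, are uncertain. The split of Pcdha11 into 2 entries, of which 1 was at 0, comes from the deposited table. In addition, 33 of the 90 members found in the annotation have exons that overlap an antisense gene, among them Pcdhga1 and Pcdhgc3.

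The Pcdhg cluster took most of the clustered counts in every retina, and its share was largest in Sorbinil replicate 1. Pcdhg genes made up 60.7%, 60.9% and 61.6% of them in the DMSO retinas, 69.0% in Sorbinil replicate 1 and 60.9% in the other Sorbinil retina. For Pcdhb genes the DMSO shares were 27.8%, 27.8% and 27.5%, and the Sorbinil shares 20.5% and 27.8%. The Pcdha share ranged only from 10.4% to 11.5% over the 5 retinas. The ratio of Pcdhg to Pcdhb counts was 2.18, 2.19 and 2.24 with DMSO and 2.19 in Sorbinil replicate 3, but 3.36 in Sorbinil replicate 1. A ratio within a library does not depend on the scaling between libraries. The 2 Sorbinil retinas differed more from each other than the 3 DMSO retinas did.

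**Figure D3:**
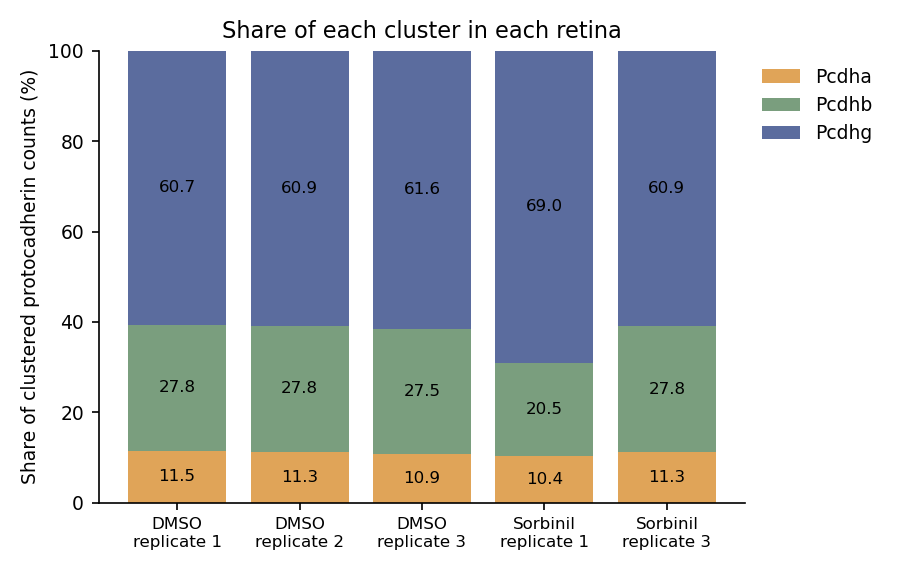
Stacked bars of the share (%) of all clustered protocadherin counts that fell on Pcdha, Pcdhb and Pcdhg genes, with 1 bar per retina. The 3 DMSO retinas and Sorbinil replicate 3 have nearly equal bars, and Sorbinil replicate 1 has 69.0% Pcdhg and 20.5% Pcdhb.

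Pcdha genes were lower in Sorbinil replicate 1 in all 13 cases tested. Pcdha1, the first variable exon of the array, was the member with an unadjusted p-value under 0.05. It measured 2.34, 2.25 and 2.05 CPM with DMSO, 0.875 CPM in Sorbinil replicate 1 and 1.49 CPM in Sorbinil replicate 3. Both Sorbinil retinas thus lay below all 3 DMSO retinas. The log2 fold change was -0.90 (standard error 0.32, unadjusted p = 0.0319, adjusted p = 0.758 by edgeR), and the exact two-sided permutation test gave p = 0.1, the smallest that 10 groupings allow. Leaving out Sorbinil replicate 1 gave -0.56 and leaving out Sorbinil replicate 3 gave -1.34. The unadjusted p-value by edgeR rose to between 0.0662 and 0.0974 without any 1 of the DMSO retinas, to 0.0757 without Sorbinil replicate 1 and to 0.0578 with library-size scaling. These values rest on between 46 and 226 counts per retina. Pcdhac2, the C-type gene at the end of the array, was the most abundant, at 37.4, 34.0 and 33.5 CPM with DMSO and 29.7 and 37.9 CPM with Sorbinil. Pcdha11_1 was next, at 12.8, 12.5 and 10.8 CPM with DMSO and 10.5 and 13.0 CPM with Sorbinil.

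Pcdhb genes had the lowest median log2 fold change of the 3 clusters, -0.40, compared to -0.22 for Pcdha and 0.05 for Pcdhg. This order rested on Sorbinil replicate 1, with medians against the DMSO mean of -1.05 for Pcdhb, -0.92 for Pcdha and -0.10 for Pcdhg, while Sorbinil replicate 3 stood at 0.08, 0.11 and 0.12. Without Sorbinil replicate 1 the median log2 fold changes of Pcdhb, Pcdha and Pcdhg were 0.09, 0.12 and 0.13. In Sorbinil replicate 1, 21 of 22 were below every DMSO retina, and 14 were at least 2-fold below the DMSO mean. Pcdhb8 had the smallest p-value, at 10.8, 10.01 and 9.11 CPM with DMSO, 3.25 CPM in Sorbinil replicate 1 and 8.32 CPM in Sorbinil replicate 3. Its log2 fold change was -0.78 (standard error 0.40, unadjusted p = 0.101, adjusted p = 0.758 by edgeR). In contrast, Pcdhb19 was level, at 20.6, 22.5 and 23.2 CPM with DMSO and 22.4 and 23.4 CPM with Sorbinil, and was the Pcdhb gene for which Sorbinil replicate 1 lay within the DMSO range. Pcdhb17 lay between them, at 23.4, 21.7 and 24.2 CPM with DMSO and 15.8 and 27.8 CPM with Sorbinil.

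Position along the Pcdha and Pcdhb arrays went with the log2 change in Sorbinil replicate 1. Across the 22 Pcdhb genes, Spearman's rho between gene order and log2 change was 0.691 for Sorbinil replicate 1 and 0.309 for Sorbinil replicate 3. Across 12 Pcdha genes it was 0.888 and 0.494, and across 22 Pcdhg genes it was -0.321 and 0.032. These are descriptions over neighbouring genes of 1 library that share its depth, and in Pcdha and Pcdhg also exons. The genes also differ in level and exon length along the arrays, and the part of either was not tested. In stretches chosen after the values were seen, Pcdhb1 to Pcdhb10 with Pcdhb12 lay between -1.68 and -1.01 (median -1.62), while Pcdhb15 to Pcdhb21 lay between -0.85 and 0.02 (median -0.54). Likewise Pcdha1 to Pcdha6 lay between -1.56 and -0.95, and Pcdha11_1, Pcdha12, Pcdhac1 and Pcdhac2 between -0.41 and -0.19. The genes left out of these stretches blur the contrast. They were Pcdhb11 (-0.82), Pcdhb13 (-1.06), Pcdhb14 (-1.02), Pcdha7 (-0.70), Pcdha8 (-0.92) and Pcdha9 (-0.51), and Pcdhb22 (-1.03) at the end of its array. In Sorbinil replicate 3 the medians of these 4 stretches were -0.02, 0.23, -0.16 and 0.12.

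**Figure D4:**
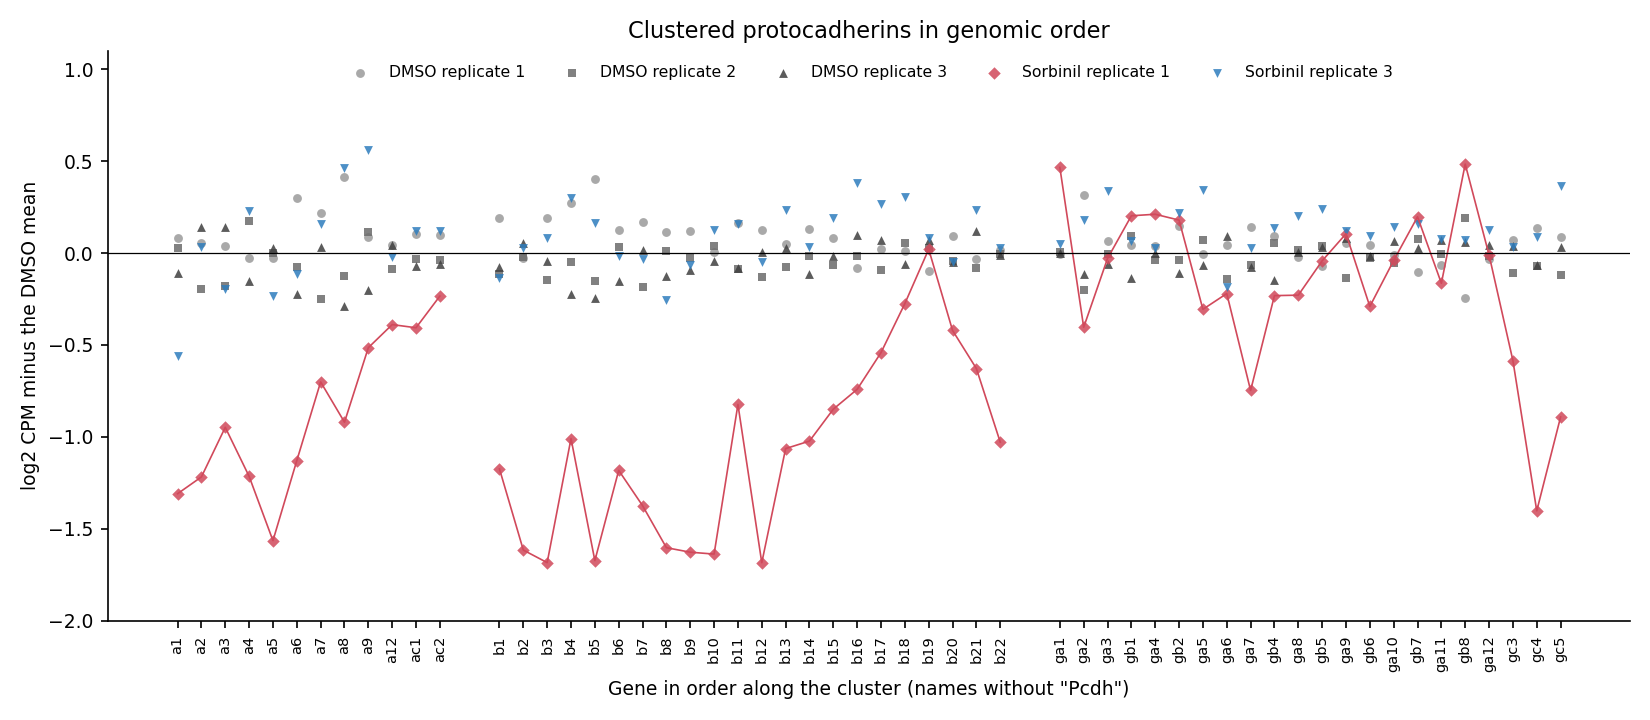
Log2 CPM minus the DMSO mean for 56 clustered protocadherins in their order along chromosome 18, with 1 point per retina and a line through Sorbinil replicate 1 within each cluster. The line is low through Pcdha1 to Pcdha6 and Pcdhb1 to Pcdhb12, close to 0 at Pcdhb19 and low again at Pcdhb22 (-1.03). It is close to 0 across most of Pcdhga and Pcdhgb, and low at Pcdhgc4 (-1.40).

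The types of Pcdhg genes are given apart, and were not tested against each other. The 19 Pcdhga and Pcdhgb genes had medians of -0.04 and 0.13 on the log2 scale in Sorbinil replicates 1 and 3, and 0 of them were at least 2-fold below the DMSO mean in Sorbinil replicate 1. Their summed level was 387, 373 and 375 CPM with DMSO and 370 and 410 CPM with Sorbinil. The 3 Pcdhgc genes had log2 medians of -0.89 and 0.09 in these Sorbinil retinas. The types overlapped, since Pcdhga7, chosen after its values were seen, stood at -0.75 in Sorbinil replicate 1 and Pcdhgc3 at -0.59. Pcdhgc3 had the highest level per length of all members, at 26.4 CPM per kb of exon. The same CPM over only the exon length shared with no other member gave 43.6 per kb. That value still includes any reads counted on the shared exons. Pcdhgc3 measured 154, 136 and 151 CPM with DMSO and 98.1 and 151 CPM with Sorbinil. Pcdhgc4, needed for the survival of many neurons, was at 46.7, 40.3 and 40.6 CPM with DMSO, 16.04 CPM in Sorbinil replicate 1 and 45.1 CPM in Sorbinil replicate 3. It was the Pcdhg gene at least 2-fold below the DMSO mean in Sorbinil replicate 1. Pcdhga1, the first gene of the array, lay the other way, at 24.98, 25.2 and 25.1 CPM with DMSO and 34.7 and 25.96 CPM with Sorbinil. Both Sorbinil retinas were above all 3 DMSO retinas, and the log2 fold change was 0.27 (standard error 0.16, unadjusted p = 0.135, adjusted p = 0.758 by edgeR).

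Across the family the 2 groups did not overlap for 11 genes, all of them clustered protocadherins. Of the 89 members, 7 were lower in both Sorbinil retinas than in any DMSO retina (10.5% of all genes tested were), namely Pcdha1, Pcdha3, Pcdha5, Pcdhb1, Pcdhb8, Pcdhb20 and Pcdhga6. The 4 with both Sorbinil retinas higher (12.8% of all genes) were Pcdhga1, Pcdhga9, Pcdhgb2 and Pcdhgb7. These shares are near or below those of all genes, and 8 of the 11 are named here after their values were seen. Among the 7 lower genes, Sorbinil replicate 3 was close to the DMSO retinas for Pcdhb20, with 17.2 CPM compared to 17.2 CPM in DMSO replicate 3. For Pcdhga6 both Sorbinil retinas were alike, at 14.9 and 15.2 CPM against 17.9, 15.7 and 18.5 CPM with DMSO, but the exact permutation p-value was 0.2. The untested Pcdh12 had between 2 and 9 counts in a DMSO retina and at most 2 in a Sorbinil retina, too few to order them.

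Levels within the DMSO retinas were reproducible for most members. Of the abundant genes, Cdh2 and Pcdhgc3 varied little, with standard deviations of 13.9 around 190 CPM and of 9.67 around 147 CPM (n = 3). Pcdh15 and Pcdh1 varied more, with 25.95 around 183 CPM and 14.4 around 64.6 CPM. Per kb of exon, the medians over members in the DMSO retinas were 2.50 CPM for Pcdhb, 2.11 for type II cadherins, 3.25 for delta-2 and 5.32 for delta-1 protocadherins, and 0.48 for type I cadherins, among which only Cdh2 and Cdh4 were above 1 CPM per kb. Outside the clusters, the highest levels per kb were those of Cdh2, Pcdh9, Pcdh15, Pcdh1 and Pcdh8, in this order, at 21.9, 8.10, 7.69, 7.25 and 6.34 CPM. The 4 protocadherins after Cdh2 in this order overlapped with their neighbours over the DMSO retinas.

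Catenins are the cytoplasmic partners of the classical cadherins. Of 14 genes of catenins and the adherens junction that were tested, 0 were called (1.71% of all genes tested were). The log2 fold change was negative for 9 (64.3%, compared to 51% of all genes tested), with a median of -0.11. Against the DMSO mean they had medians of -0.24 and 0.09 in Sorbinil replicates 1 and 3, and without Sorbinil replicate 1 the median log2 fold change was 0.10. Ctnnb1, which encodes β-catenin, was at 341, 345 and 320 CPM with DMSO and 286 and 326 CPM with Sorbinil. Ctnna1, which encodes the αE-catenin that links the complex to actin, was at 95.9, 98.0 and 96.6 CPM with DMSO and 132 and 115 CPM with Sorbinil, and was higher in both Sorbinil retinas. Its log2 fold change was 0.35 (standard error 0.12, unadjusted p = 0.0261, adjusted p = 0.758 by edgeR). Ctnnd1, which encodes p120-catenin, had a log2 fold change of 0.03, and the neuronal δ-catenin gene Ctnnd2 was at 82.9, 69.2 and 62.6 CPM with DMSO and 28.8 and 76.9 CPM with Sorbinil. In Ctnnd2, as in most cadherins, Sorbinil replicate 1 was the lowest retina.

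Regulators of the protocadherin clusters were followed as a list of 13 genes, and the list itself was not tested. The median log2 fold change was 0.16, and 0 genes were called (1.71% of all genes tested were). Of the 13 genes, 11 had a positive and 2 a negative log2 fold change (51% of all genes tested were negative). Their medians were 0.25 and 0.10 in Sorbinil replicates 1 and 3, and without Sorbinil replicate 1 the median log2 fold change was 0.11. Ctcf, whose product loops promoters of the clusters to their enhancers, was at 99.6, 103 and 104 CPM with DMSO and 121 and 102 CPM with Sorbinil. Smchd1, whose product represses clustered protocadherin genes, was at 90.1, 104 and 107 CPM with DMSO and 155 and 119 CPM with Sorbinil, above the DMSO retinas in both. Its log2 fold change was 0.44 (standard error 0.16, unadjusted p = 0.0351, adjusted p = 0.758 by edgeR). Neither the 18 genes of protocadherin signaling nor the 7 sheddase and presenilin genes held a gene with an unadjusted p-value under 0.05 by edgeR. Of all genes tested, 5.01% had one. In either list 0 genes were called. Of 16 atypical cadherins tested, 0 were called, 9 had a negative log2 fold change, and the median was -0.02. Against the DMSO mean these genes also had medians on opposite sides, -0.84 in Sorbinil replicate 1 and 0.38 in Sorbinil replicate 3. Sorbinil replicate 1 was the lowest retina for 11 of them, compared to 39.2% of all genes tested. Sorbinil replicate 3 was the highest for 10, compared to 2527 of all 14992 genes. Celsr3, chosen after its values were seen, had a log2 fold change of 0.59 (unadjusted p = 0.0177, adjusted p = 0.758 by edgeR).

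Markers of the inner retina, glia and vessels moved with most cadherins in Sorbinil replicate 1. The median in that retina was -1.39 for 7 amacrine genes, -1.46 for 7 ganglion cell genes, -1.23 for 7 bipolar genes, -1.47 for 5 Müller glia genes and -1.69 for 10 genes of endothelium and pericytes. It was -0.88 for 7 microglia genes, -1.41 for 4 astrocyte genes and -0.79 for 6 pigment epithelium genes, a list that stood at 0.87 in DMSO replicate 3. For amacrine, ganglion, bipolar, Müller and vessel genes the medians in Sorbinil replicate 3 were 0.19, -0.22, -0.02, 0.03 and -0.25, and the horizontal cell median was 0.32. Sorbinil replicate 1 was below every DMSO retina for 7 of 7 amacrine, 7 of 7 ganglion cell, 7 of 7 bipolar, 5 of 5 Müller glia and 9 of 10 vessel genes. The summed level of the Müller genes was 4985, 4464 and 4460 CPM with DMSO, 1693 CPM in Sorbinil replicate 1 and 4771 CPM in Sorbinil replicate 3. In Sorbinil replicate 3 the medians of the 11 marker lists ran from -0.33 for rods to 0.32 for horizontal cells. In that retina the medians were 0.17 for type I, 0.18 for type II, 0.32 for delta-1 and 0.41 for delta-2 genes. They were 0.11 for Pcdha, 0.08 for Pcdhb and 0.12 for Pcdhg. The part of these cell types in the cadherin levels was not tested.

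**Figure D5:**
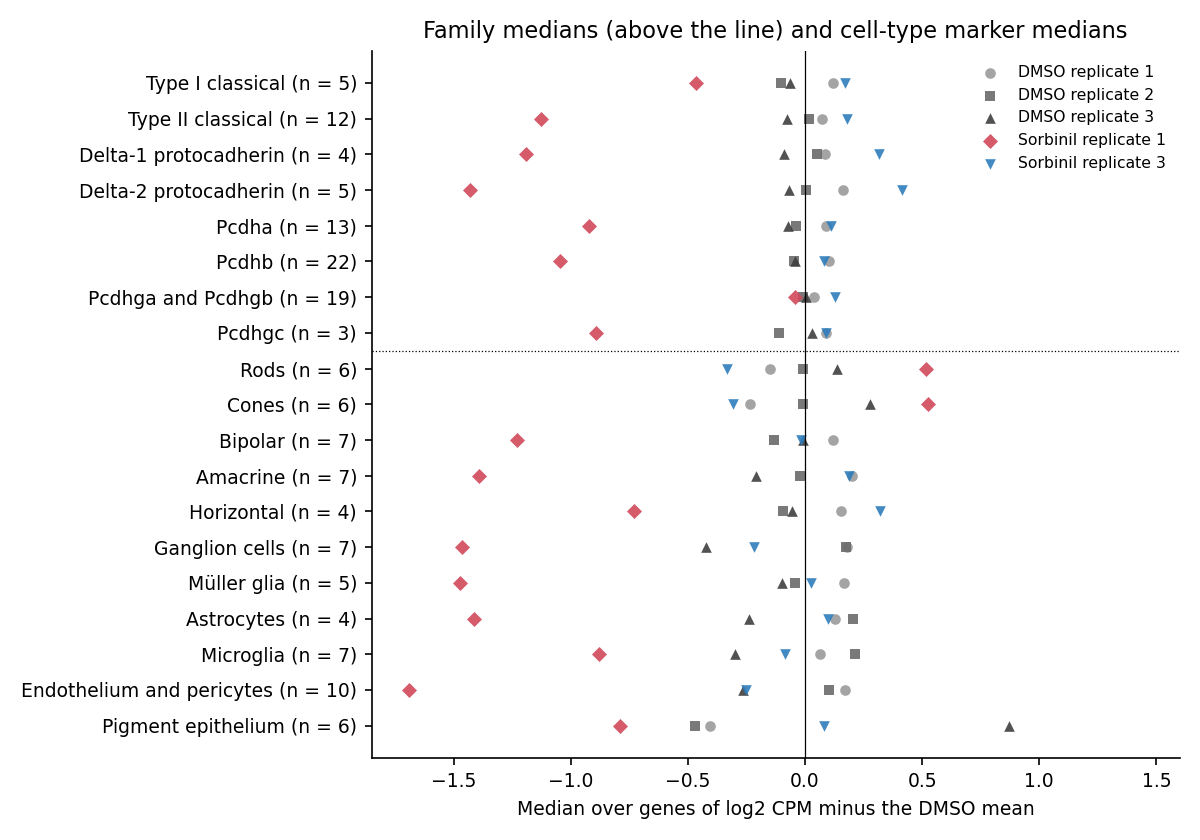
Median over genes of log2 CPM minus the DMSO mean for 8 cadherin subgroups (above the dotted line) and 11 cell-type marker lists, with 1 point per retina and the number of tested genes in brackets. In Sorbinil replicate 1 the rod and cone medians are at 0.51 and 0.53 and the inner-retina and vessel medians at -1.69 to -0.73, with most cadherin subgroups among the latter and Pcdhga and Pcdhgb at -0.04.

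GC content and level were compared with these values over 88 members as a description. Spearman's rho of the log2 change in Sorbinil replicate 1 was 0.207 with GC content, 0.054 with transcript length and 0.304 with mean log2 CPM. Over 14627 of the genes tested the same measures gave -0.241, 0.054 and 0.337. Median GC content was 52.9% in Pcdhg, 46.0% in Pcdhb and 47.4% in Pcdha, and the medians of the 3 clusters in Sorbinil replicate 1 were -0.10, -1.05 and -0.92. Their part in the levels was not tested.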

How the data were processed

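Total RNA sequencing of 5 injured mouse retinas was analysed from the deposited whole-number counts per gene. The authors trimmed the reads, mapped them to GRCm39 in CLC Genomics Workbench with default settings and deposited the total counts without normalization. The annotation release, the division of reads shared by genes and the use of strand in counting are not given in the sources used here, although the labels call the libraries reverse stranded. The study's text and the labels name different total RNA kits. Sorbinil replicate 2, excluded by the authors after PCA, was not analysed here. Totals ran from 56096541 to 90288552 counts, every pair of retinas differed beyond sampling noise, and reads without molecular identifiers make counting error a lower limit.

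Counts were filtered with filterByExpr (minimum count 10), which left 14992 genes, scaled by TMM and tested with edgeR 4.0.16 (glmQLFit, glmQLFTest) in R 4.3.3 with no covariate and Benjamini-Hochberg adjustment over all genes. Log2 CPM used a prior count of 2. For single genes, exact permutation tests ran over 10 groupings of log2(CPM + 0.01). Positions, exon lengths (all exons merged) and GC content came from GENCODE vM39, which held 90 of the 92 members. Alternatives were DESeq2 1.42.0 size factors and Wald test, library-size scaling, other filters, a replicate block and leaving out each retina. Steps were tested on simulated data.

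Genes named are, in each subgroup, the 2 with the highest mean CPM, the 1 with the smallest p-value, all genes of subgroups with up to 5 tested, any member called or with p under 0.05, and Ctnnb1, Ctnna1, Ctnnd1, Ctnnd2, Ctcf and Smchd1. The members and gene lists were chosen with earlier results of these data known.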

Additional observations from a re-analysis of the deposited data

How the results depend on the processing

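The count of 0 called members was the same under every alternative except 1. Leaving out each retina gave 0 to 39 called members, where 39 were called without Sorbinil replicate 3. The median log2 fold changes ranged from -0.84 to 0.18 (classical cadherins), -0.63 to 0.12 (clustered protocadherins) and -1.30 to 0.34 (other protocadherins) when each retina was left out, with the positive value without Sorbinil replicate 1 in each class. With library-size scaling alone, which shifted the median of all genes to -0.11, the clustered median was -0.27, and the log2 fold changes of Pcdhb19 (-0.047) and Ctnnd1 (-0.046) changed sign. Only 2 replicate numbers were shared, and the deviations of same-numbered retinas from their group means had correlations of -0.24 and -0.12. With 2 Sorbinil retinas these deviations are mirror images of each other. The correlations therefore cannot decide whether same-numbered retinas share more than a number. With the replicate block, 0 members were called or had an unadjusted p-value under 0.05 (0.195 for Pcdha1 by edgeR), the clustered median was -0.27, the median of other protocadherins was -0.46, and the log2 fold change of Cdh17 was -0.23, below 0. The cause of these changes was not tested.

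When each retina was left out, the log2 fold change was followed for 54 genes, most of them described singly above. Those for which it crossed 0 follow, among them Cdh20 and Cdh24, which are not described elsewhere. Cadherins ran from -2.08 to 0.47 for Cdh1, -1.22 to 0.25 for Cdh11, -1.17 to 0.32 for Cdh13, -0.0031 to 0.47 for Cdh15, -0.62 to 0.55 for Cdh17, -0.45 to 0.18 for Cdh2, -1.06 to 0.14 for Cdh20, -1.43 to 0.20 for Cdh23, -1.34 to 0.17 for Cdh24, -0.64 to 0.014 for Cdh3, -1.23 to 0.58 for Cdh6, -0.54 to 0.20 for Cdh8 and -0.31 to 0.13 for Cdh9. Non-clustered protocadherins ran from -1.31 to 0.11 for Pcdh1, -1.502 to 0.34 for Pcdh10, -1.002 to 0.34 for Pcdh11x, -1.41 to 0.41 for Pcdh17, -1.44 to 0.56 for Pcdh18, -0.96 to 0.50 for Pcdh19, -1.30 to 0.22 for Pcdh20, -1.24 to 0.40 for Pcdh7, -1.53 to 0.29 for Pcdh8 and -1.15 to 0.31 for Pcdh9. Clustered protocadherins ran from -0.20 to 0.12 for Pcdha11_1, -0.24 to 0.13 for Pcdhac2, -0.54 to 0.28 for Pcdhb17, -0.75 to 0.034 for Pcdhga7, -0.59 to 0.042 for Pcdhgc3 and -1.41 to 0.10 for Pcdhgc4. Catenins ran from -0.22 to 0.26 for Ctnnd1 and -1.32 to 0.11 for Ctnnd2. DESeq2 size factors, the DESeq2 Wald test, no filter and at least 10 counts in every retina changed the direction or the side of the threshold of 0 named genes.

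With 2 Sorbinil retinas the exact permutation test cannot go below 0.1. Counts under 10, as for Cdh26 and Pcdh12, could not show a change at this depth.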
